A study of Strongylocentrotus purpuratus with 10 samples.

Results

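FoxG, Gsc, Nk1, Unc4.1 and Alk4-5-7 are regulators of the oral ectoderm and of the ectoderm at its border with the endoderm in the purple sea urchin Strongylocentrotus purpuratus. They were chosen by name or gene ID from the authors' deposited table of differentially expressed genes, which gave 6 of its 3542 rows, because 2 gene models carry the name Nk1. Being in that table was a condition of the choice and is no finding. The data come from whole embryos at the blastula stage, 24 h after fertilisation. RNA-seq compared 3 libraries labelled as wild type control with 3 libraries from embryos given a translation-blocking morpholino against brachyury, injected into zygotes as 2 to 4 pl at 200 µM. ChIP-seq had 2 antibody libraries with 1 matched input each, and a temperature of 15 °C is given for these libraries. No genotype or strain is given, and neither injection of the controls nor the number of embryos in a library is stated. Whether the antibody libraries differ in antibody or in embryo batch is not stated either. The files give no read totals and no value per library, so the depth is unknown and each value below stands without a spread.

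In sea urchin embryos the oral side of the ectoderm is set by Nodal, a TGF-beta ligand that signals through the receptor kinase Alk4-5-7. Gsc, a homeobox repressor, and FoxG, a forkhead factor, are transcription factors of the oral ectoderm downstream of Nodal. Nk1 and Unc4.1 are homeobox factors of the ectoderm that borders the vegetal endoderm. Brachyury itself is a T-box factor expressed in the vegetal plate and in the oral field around the future mouth, so these genes neighbour or share its territories.

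The morphant embryos were given the brachyury morpholino, an antisense oligomer of 23 bases. Since injection of the controls is not stated, injection itself and the morpholino cannot be told apart in the fold changes below. It is shown 5′ to 3′ with its reverse complement, which is the strand it pairs with, and capitals mark each ATG found there, at positions 8 and 17 counted from the 5′ end. Which of the 2 is the start codon was not tested.
morpholino: cgctcattgcaggcatagtggcg
reverse complement: cgccactATGcctgcaATGagcg

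The 4 transcription factors had negative log2 fold changes between morphants and controls, and the receptor Alk4-5-7 a positive one. The numerator of the fold change is not stated in the table, so directions are given as signs only. Were it morphant over control, a negative sign would mean a lower level in morphants. In whole embryos fewer cells of a type and less RNA per cell cannot be told apart. The authors' deposited table held 1828 negative rows, with a median of -1.19, and 1714 positive rows, with a median of 0.93. As background, 11.9% of 27433 nuclear protein-coding genes of the RefSeq gene table had a row, 6.12% on the negative side and 5.73% on the positive side. The number of genes the authors tested is not given.

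The homeobox genes Nk1 and Unc4.1 had more negative values than FoxG and Gsc. The gene model named Nk1 had a log2 fold change of -2.11, a 4.31-fold difference, with an adjusted p of 2.23e-08 per the authors' deposited table. A second gene model of the same name (LOC115924127) stood at -2.51, a 5.68-fold difference, with an adjusted p of 3.29e-10 per the authors' deposited table. Both models carry the same transcript identifier and the same description, and on the inferred scaffold they lie 2255726 bp apart, so reads may be divided between them and each value is uncertain. They rank 292 and 191 among the 1828 negative rows, counted from the most negative value.

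Unc4.1 (LOC577625) had a log2 fold change of -2.21, a 4.61-fold difference, with an adjusted p of 5.29e-05 per the authors' deposited table. Its rank among the negative rows was 260. It too has a second model with the same transcript identifier (LOC115923659), which falls outside the rule. That copy stood at -1.99 with an adjusted p of 3.92e-06 per the authors' deposited table. The copies differed by 0.40 for Nk1 and by 0.21 for Unc4.1 on the log2 scale, and no error was at hand against which to read either difference.

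FoxG had a log2 fold change of -1.96, a 3.90-fold difference, with an adjusted p of 5.79e-12 per the authors' deposited table. This was the lowest adjusted p of the 5 negative rows, although the fold changes of Nk1 and Unc4.1 were further from 0. By adjusted p, FoxG ranked 114 of 3542 rows. Gsc had a log2 fold change of -1.68, a 3.20-fold difference, with an adjusted p of 1.11e-06 per the authors' deposited table, and ranked 495 among the negative rows. FoxG and Gsc each have a single row and a single transcript identifier in the table.

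Alk4-5-7 (LOC593908) had a log2 fold change of 1.14, a 2.20-fold difference, with an adjusted p of 2.83e-12 per the authors' deposited table. The adjusted p was lower than for any of the transcription factors, at rank 108 of 3542, while the fold change ranked 629 among 1714 positive rows. The row joins 4 older gene identifiers and also carries the name TfpiL, and its deposited protein domain is a HECT ubiquitin transferase rather than a kinase. Its description names TGF-beta receptor type-1, and which transcripts were counted under the row was not tested. Brachyury (LOC576774), whose mRNA the morpholino binds without removing it, stood close by at 1.18 with an adjusted p of 8.71e-05 per the authors' deposited table.

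**Figure D1:**
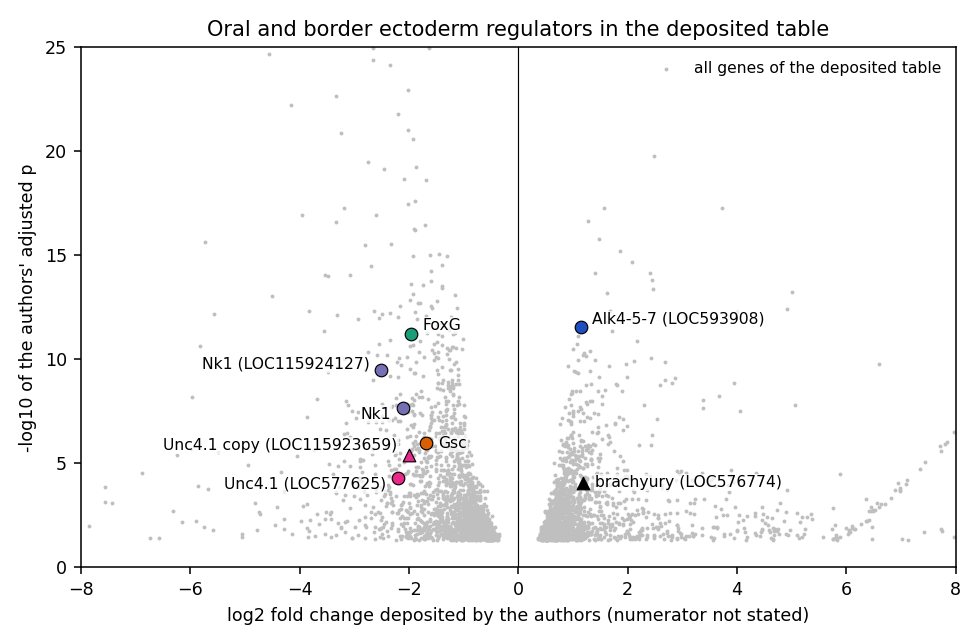
Log2 fold change (horizontal, numerator not stated) against the -log10 of the adjusted p (vertical) for genes of the authors' deposited table, with 40 rows outside the axes. Circles mark the 6 rows described here, and triangles mark the second Unc4.1 model and brachyury. The 5 rows of transcription factors lie between -2.51 and -1.68, and Alk4-5-7 at 1.14.

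The homeobox regulators lay toward the negative end of the rows given a homeodomain term. Of 28 rows with this term per the authors' deposited table, 22 were negative, or 78.6%, against 51.6% of all rows. Among these 28, Nk1 and Unc4.1 took places 4 to 7 from the negative end with their copies, behind Nk7, Isl and an unnamed gene. Gsc took place 9, next to Msx at -1.69 per the authors' deposited table. Homeobox genes without the term, such as hox1, named Hox7, at -2.16 and HMX at -1.89, were left out. The places and counts therefore hold for the matched rows only. Without the 4 homeodomain rows among the chosen regulators, 18 of the other 24 were negative, and these 18 include the second Unc4.1 model. Families were read from the deposited domain terms after their values had been seen, and no test was made of their difference from the table.

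FoxG differed in sign from most forkhead genes of the table. Of 24 family names sought, 6 had a row, where 11.9% of protein-coding genes had one. These rows were 2 negative (33.3%, against 51.6% of all rows) and 4 positive, with a median of 0.63. For FoxG, having a row was a condition of the choice, and of the 5 other rows 1 was negative and 4 positive. Besides FoxG, the endoderm and oral regulator FoxA was negative at -0.67 per the authors' deposited table. The positive forkhead rows per the authors' deposited table were FoxJ1 (0.75), a regulator of motile cilia, FoxM (LOC576632, 0.83), a cell cycle factor in vertebrates, the skeletogenic factor FoxN2/3 (LOC590815, 0.78), and FoxJ2 (LOC753796, 0.50).

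Among regulators listed for the oral ectoderm, 8 of 19 names had a row, 5 negative (62.5%) and 3 positive. For comparison, 51.6% of all rows were negative, and 11.9% of protein-coding genes had a row. FoxG and Gsc had the most negative values of the 8 rows. For both, having a row was a condition of the choice, and without them 3 rows were negative and 3 positive. The other negative rows per the authors' deposited table were Tbx2/3 (-0.85), SoxB1 (-0.82) and FoxA. Tbx2/3 also stands among the aboral ectoderm markers given below, so its row does not speak for the oral side alone. The positive rows per the authors' deposited table were brachyury, FoxJ1 and the homeobox gene Otx (0.56). Nodal, Lefty, Chordin and Not, which act with Gsc in the oral ectoderm, had no row under these names, so they were unchanged, below the threshold, unmeasured or listed under another name.

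The list for the border and veg1 ectoderm had 10 of 20 names in the table, with 10 negative and 2 positive rows and a median of -1.75. For comparison, 11.9% of protein-coding genes had a row, and 51.6% of all rows were negative. The 10 names include Nk1, Unc4.1 and Gsc, for which having a row was a condition of the choice. Hnf6 and Onecut overlap as names, so the 20 names do not count separate genes. With 1 row for each name the split was 8 negative and 2 positive. Without the Nk1, Unc4.1 and Gsc rows chosen here, 6 rows were negative and 2 positive, and these 6 include the second Unc4.1 model. They also include Pax2/5/8 (LOC115918459) at -1.97, the signalling ligand Fgf9/16/20 (FGF) at -1.82 and IrxA at -1.32 per the authors' deposited table. Dlx and Hnf6, the latter a regulator of the ciliary band, stood at -0.95 and -0.92 per the authors' deposited table. The positive rows were Hox11/13b (Hbox7) at 1.15 and the ligand Vegf3 (LOC100889860) at 0.54 per the authors' deposited table.

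Other TGF-beta signalling components also had rows, where 11.9% of protein-coding genes had one. Some names in the list overlap, such as Smad6 and Smad6/7, so they do not count separate genes. Of 37 names listed for Nodal, Activin and BMP signalling, 8 had a row, 6 positive and 2 negative, with a median of 0.69, while 1714 of all 3542 rows were positive. The 7 rows other than Alk4-5-7 were 5 positive and 2 negative, and 2 positive and 2 negative with an adjusted p under 0.01 per the authors' deposited table. Alk4-5-7 had the largest value of the 8. The type II activin receptor Acvr2 (LOC574893), the BMP signal transducer Smad1/5/8 (LOC582943), the protease Bmp1 and the ubiquitin ligase Smurf (LOC115929530) stood at 0.44, 0.74, 0.80 and 0.65 per the authors' deposited table. The row named Bmp5-8 (LOC105444767), at 1.00 per the authors' deposited table, is described there as a DNA repair protein and is uncertain. The negative rows were the inhibitory Smad6/7 (LOC593676) at -0.71 and the corepressor Tgif (LOC575445) at -0.68 per the authors' deposited table. The name match missed 3 receptors, named after their values were seen. These were Alk2 (LOC590282) at 1.06, Bmpr2 (LOC586095) at 0.54 and a type II TGF-beta receptor (LOC580712) at -0.70 per the authors' deposited table. With these added and the Bmp5-8 row left out, 7 rows were positive and 3 negative.

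**Figure D2:**
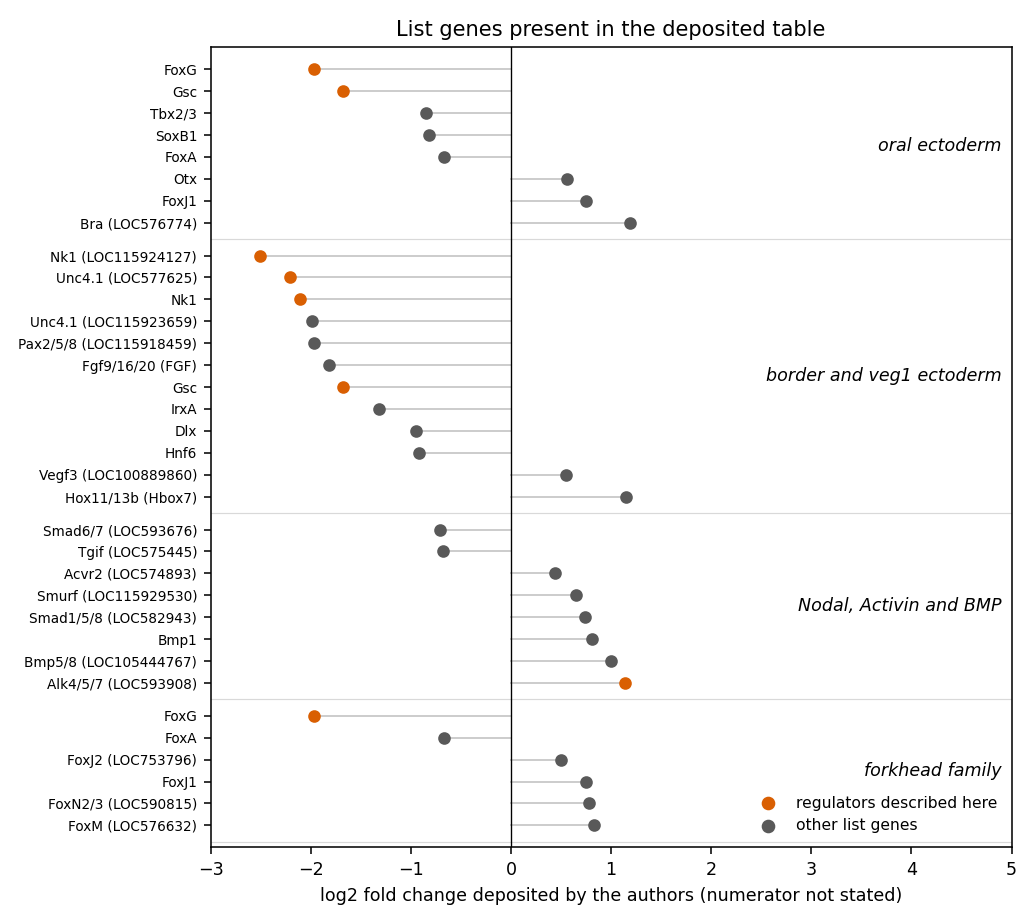
Log2 fold change (horizontal, numerator not stated) of each list gene with a row per the authors' deposited table, by list, in order of value. Orange points are the regulators described here and grey points the other list genes. Alk4-5-7 has the largest value of its list at 1.14, and both Nk1 models and Unc4.1 have the most negative values of theirs.

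Markers of other territories moved in the same comparison, and their part in the values above was not tested. All 7 aboral ectoderm markers sought had a row and were negative, from -2.16 for hox1, named Hox7, to -0.85 for Tbx2/3 per the authors' deposited table. This count is not separate from those above, since IrxA and Dlx also stand in the border list and Tbx2/3 in the oral list. Of 4 apical plate markers, 3 had a row and were negative. Of 15 skeletogenic rows, from 5 markers, 13 were negative, but most of the 15 are models named SM30 or Msp130. The skeletogenic regulator Alx1 was positive at 0.90. Of 6 rows of non-skeletogenic mesoderm markers 5 were positive, with Scl repeated among them. Of 5 endoderm markers 2 had a row, FoxA at -0.67 and Hox11/13b at 1.15, which also stand in the lists above. Of all rows 51.6% were negative, and 11.9% of protein-coding genes had a row. Of the 6 oral ectoderm markers, FoxG and Gsc alone had a row.

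In that single comparison, the named rows closest in log2 fold change belonged to genes of many kinds. The row next to Nk1 on the negative side was the elongase Elovl4 (LOC593296) at -2.12, and that next to the LOC115924127 model was the acid-sensing channel Acnn1 (LOC115918888) at -2.51 per the authors' deposited table. Next to Unc4.1 stood a ribosomal protein gene, Rpl32 (LOC115927475), at -2.21, and next to FoxG ATP-citrate synthase, Acly (LOC587157), at -1.97 per the authors' deposited table. Next to Gsc on the less negative side was the channel Trpc5 (LOC584852) at -1.67, and next below Alk4-5-7 was stathmin, Stmn1 (LOC579431), at 1.14 per the authors' deposited table. One value per gene measures no likeness across libraries.

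Brachyury ChIP-seq gave peaks within 10 kb of Gsc and FoxG and none within 10 kb of Alk4-5-7 or either Nk1 model. Positions are on Spur_5.0 scaffolds and counted from 1. The gene table names no scaffold, so the scaffold of a gene was taken from where its row stands among blocks of rows with rising positions. A peak was counted where its midpoint lay within 10 kb of a gene span, and 3 peaks met this, all from antibody library 2. Of 24774 protein-coding genes on the inferred scaffolds, 21.4% had a library 2 peak at that distance, 5.81% a library 1 peak and 1.59% a peak of the authors' combined set. Among placed genes of the differential table the shares were 30.4%, 8.06% and 2.99%. FoxG and Gsc thus make 2 genes with a library 2 peak among 5 placed rows, and none had a peak of library 1 or of the combined set.

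Gsc spans NW_022145611.1 from 20181893 to 20191412. The nearest peak ran from 20181303 to 20181586, with its midpoint 448 bp outside the gene span on the side of lower coordinates. The table gives no strand or exons, so whether this is the side of the promoter is not known here. Its score was 0.73, close to the median of 0.72 over the 7459 library 2 peaks. The authors' antibody signal was 1.24 against 0.35 in the input, a fold of 3.51, with a false discovery rate of 22.37%. The score equals antibody minus input signal times the authors' distribution score, within 0.02, for 8942 of 8943 peaks in both lists, and this distribution score was 0.82 for the Gsc peak. The nearest library 2 peak lay this close or closer for 13.3% of protein-coding genes.

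A second peak of library 2, from 20171840 to 20172123, lay 9911 bp from Gsc, just inside the limit. It scored higher, at 0.97, with a false discovery rate of 7.34%, the lowest of the 3 peaks. It lay nearer to another gene, LOC100890887, than to Gsc. One more, 18657 bp away on the other side, scored 0.73 and was nearest to LOC591003. Neither flanking gene is in the differential table. Otx begins 48424 bp beyond Gsc on the same inferred scaffold at 0.56 per the authors' deposited table, the opposite sign to Gsc. The combined peak nearest to Gsc, with a score of 3.43, lay 61185 bp away, inside the span of Otx.

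FoxG, a short gene, spans NW_022145611.1 from 34682877 to 34684618. The only peak within 10 kb ran from 34692538 to 34692821, 8062 bp away. Its score of 0.56 ranked 6179 of 7459, with an antibody signal of 1.39 against 0.57 in the input, a distribution score of 0.68 and a false discovery rate of 37.35%. A library 1 peak lay just outside the limit, 11367 bp away, with a score of 0.53. The peaks did not overlap each other.

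Higher peaks lay further out on the same side of FoxG. A library 2 peak from 34721035 to 34721318 lay 36559 bp away, with a score of 1.95, a fold of 5.76 and a false discovery rate of 10%. It belongs to the combined set and overlaps a library 1 peak from 34721070 to 34721205, so this region was found in both lists. The library 1 peak was weak, with a score of 0.51 at rank 1269 of 1484 and a false discovery rate of 36.75%. The lowest score in that list was 0.50. An adjoining library 2 peak scored 1.97. The highest, from 34732657 to 34732940, lay 48181 bp away with a score of 2.87, a fold of 8.42 and a rank of 189 in the list, and is also in the combined set. These peaks lay in the interval of 58733 bp between FoxG and the next gene, LOC574700, and nearer to LOC574700, which is not in the differential table.

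Alk4-5-7 spans NW_022145613.1 from 4068902 to 4103151 and had no peak of either list inside it or within 10 kb. Its nearest library 2 peak lay 20285 bp away, with a score of 0.84 and a false discovery rate of 12.80%. Another, 49235 bp away, had the lowest score in the list, 0.50. The nearest library 1 peak was 681 kb away and the nearest combined peak 183 kb away.

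**Figure D3:**
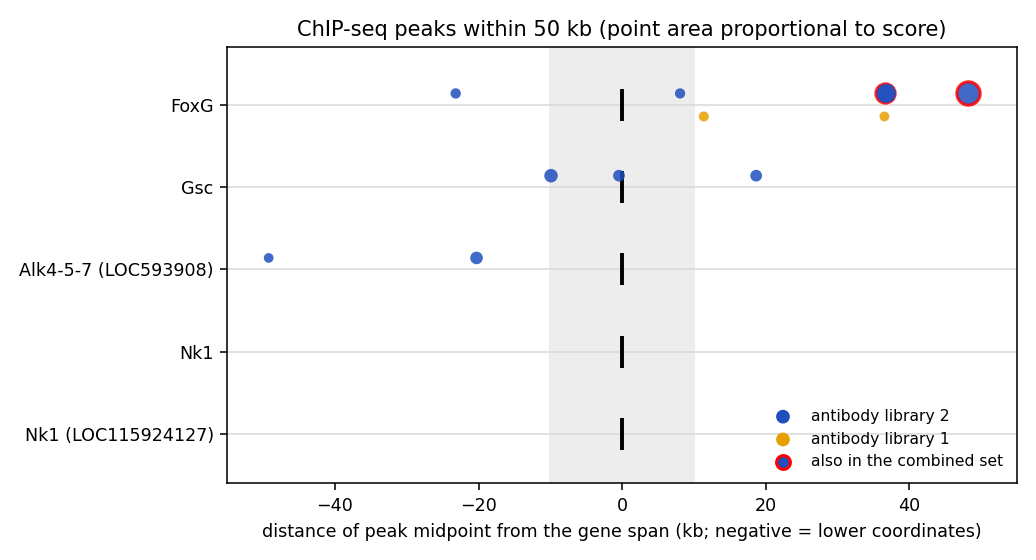
Distance of each peak midpoint from the gene span in kb (horizontal) for the 5 rows placed on an inferred scaffold. Blue points are library 2 peaks, yellow points library 1 peaks, point area is proportional to the authors' score, red rims mark the combined set and grey shading the 10 kb limit. The highest peaks, with scores of 1.95 to 2.87, lie 36559 to 48181 bp from FoxG, and no peak lies within 50 kb of either Nk1 model.

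Both Nk1 models lay far from any peak. The gene named Nk1 spans NW_022145600.1 from 29452052 to 29469080, and its nearest library 2 peak was 844 kb away. The LOC115924127 model spans the same inferred scaffold from 27196326 to 27213745, and its nearest library 2 peak was 854 kb away. A library 2 peak lay as near or nearer for 91.2% of protein-coding genes in the first case and 91.4% in the second. The protein-coding gene next to Nk1 is HMX, an aboral ectoderm regulator, 61953 bp away and at -1.89 per the authors' deposited table. The second Unc4.1 model lay 1578 kb from its nearest library 2 peak. Unc4.1 itself (LOC577625) lies in a part of the gene table that could not be given a scaffold. None of the 41 peaks on scaffolds outside the 21 inferred ones fell in its coordinate range widened by 50 kb, from 3011594 to 3043505 before widening, whichever of those scaffolds holds it.

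The absence of peaks around Nk1 extended over many genes. Library 2 peaks were unevenly spread: 285 stretches of over 500 kb without one made up 393 Mb of the 828 Mb on inferred scaffolds, or 47.4%, and held 11137 of the 24774 protein-coding genes. Of 1399 library 1 peaks on these scaffolds, 10.6% lay in the same stretches. Nk1 lay in a stretch of 2.25 Mb with 66 protein-coding genes, and LOC115924127 in the next one, of 2.62 Mb with 74. The second Unc4.1 model lay in one of 3.84 Mb with 112 genes. No library 1 peak lay in any of these 3 stretches. Gsc, FoxG and Alk4-5-7 lay outside such stretches. Table rows that share a transcript identifier with another row, as both Nk1 and both Unc4.1 models do, lay in such stretches for 371 of 535 placed rows, or 69.3%. For rows with an identifier of their own, as FoxG, Gsc and Alk4-5-7 have, the count was 689 of 2443, or 28.2%. The stretches were examined after the distances had been seen, and the part of repeated gene models in the missing peaks was not tested. The lack of a listed peak does not measure a lack of binding.

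**Figure D4:**
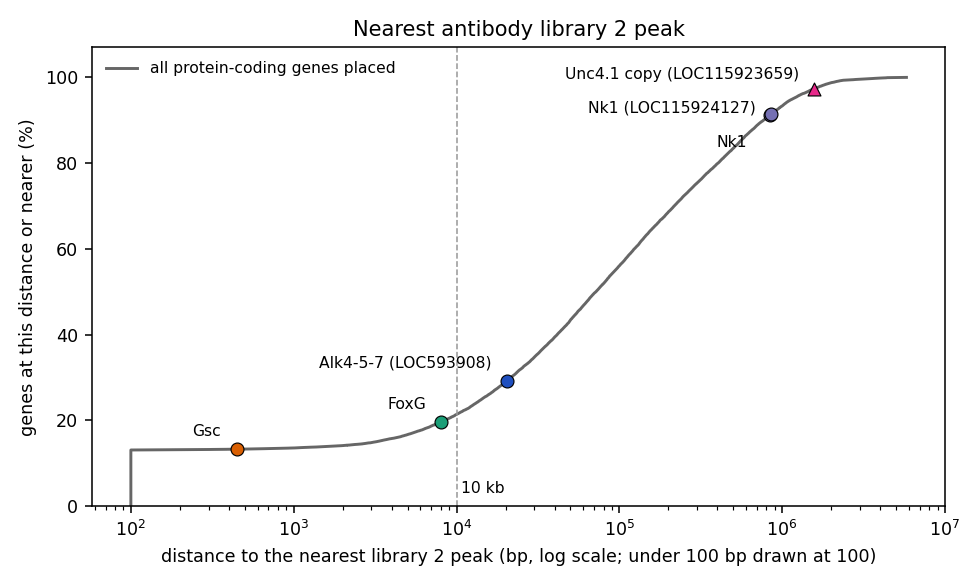
Cumulative share of placed protein-coding genes (vertical, %) by distance to the nearest library 2 peak (horizontal, bp, log scale). Points mark the placed rows described here and a triangle the second Unc4.1 model. Gsc and FoxG lie left of the 10 kb line, Alk4-5-7 at 20285 bp, and both Nk1 models beyond 844 kb.

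Peaks within 10 kb of the other list genes are given as counts, with no test. All these genes have a row in the differential table. Of placed genes of that table, 30.4% had a library 2 peak, 8.06% a library 1 peak and 2.99% a combined peak at that distance. The shares of all placed protein-coding genes were 21.4%, 5.81% and 1.59%. Of 6 other oral ectoderm genes placed, all 6 had a library 2 peak within 10 kb, 3 a library 1 peak and 4 a combined peak, namely brachyury, FoxA, Tbx2/3 and Otx. Of 8 other rows of the border list, 5 had a library 2 peak, 1 a library 1 peak and 1, FGF, a combined peak. Of 6 other placed rows of the Nodal, Activin and BMP list, 3 had a library 2 peak, 2 a library 1 peak and 1, Tgif, a combined peak. The 3 with a library 2 peak include the uncertain Bmp5-8 row, at 2127 bp. Of 5 other forkhead genes placed, of which FoxA and FoxJ1 are also in the oral list, 4 had a library 2 peak, 3 a library 1 peak and 1, FoxA, a combined peak. A sign cannot be read from these counts, since FoxA, Tbx2/3, FGF and Tgif were negative and brachyury and Otx positive per the authors' deposited table.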

How the data were processed

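RNA-seq (3 control and 3 morphant libraries, 100 bp reads) and ChIP-seq (2 antibody and 2 input libraries, 50 bp reads) were grouped by their labels. Per the submitters' processing notes, the tools were BWA 0.7.17, DESeq2 1.28.1, Salmon 0.11.3 and Trimmomatic 0.38, whose roles are not stated. Neither the peak caller nor the rule for the combined set is named there or in the file headers. Log2 fold changes, p-values and adjusted p-values were computed by the authors, and each deposited row has an adjusted p under 0.05. Its adjusted p does not follow the order of its p, since 3329 rows have a lower adjusted p than some row with a smaller p. The score, antibody and input signal, fold ratio, distribution score (a fraction) and false discovery rate in percent are the authors' values, per the file headers. The deposited coordinates are peak positions.

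With no values per library at hand, no gene was tested again, and the fitted test of counts that the plan allowed for was not run. All 3542 IDs matched the RefSeq Spur_5.0 gene table. Its rows form blocks of rising start, and those over 20 Mb were matched, in order, to the 21 scaffolds with more than 100 library 2 peaks. Every peak on them ends before the last gene end. Genes named are the chosen rows, brachyury, list genes with a row, genes nearer to a peak, flanking genes and the closest named rows by fold change. Names were matched without case, prefix, punctuation and copy mark. The members and lists were chosen with earlier results of these data known. The T-box motif could not be searched without sequence and is not analysed here. Distance and name functions were tested on simulated data. The software was matplotlib 3.10.9, pandas 2.3.3, numpy 2.4.6 and Python 3.11.15.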

Additional observations from a re-analysis of the deposited data

How the results depend on the processing

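All 6 rows kept an adjusted p under 0.01 and a log2 fold change 1 or more from 0, and the names number 5 when each is counted once. The 3 library 2 peaks within 10 kb became 1 within 5 kb, 4 within 20 kb and 10 within 50 kb. They became 0 with a score of at least 1, 0 with a fold of at least 5, 1 with a false discovery rate under 10% and 2 when a peak was given only to its nearest protein-coding gene. Library 1 had 0 peaks within 10 kb, 1 within 20 kb and 2 within 50 kb, and the combined set 0, and 2 within 50 kb. None of the 3 peaks was shared between lists, by overlap or by midpoints within 50 bp. Counting rows with a log2 fold change 1 or more from 0, the oral list had 1 positive and 2 negative rows, the border list 1 positive and 8 negative, the Nodal, Activin and BMP list 2 positive and 0 negative, and the forkhead family 0 positive and 1 negative. With an adjusted p under 0.01 the border list had 0 positive rows and the Nodal, Activin and BMP list 3. No paired analysis was possible because the table holds no values per library, and leaving out a library was not possible for the same reason. Peaks have 1 list for each antibody library and no replicate check. The alternatives with added receptors, 1 row for each name and the second Unc4.1 model were chosen after seeing the data.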
